A study of Mus musculus with 31 samples.

Results

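Leukocyte lineage genes are genes whose RNA marks white blood cells: 39 were listed by name, and 38 of them were found by that name among the 38283 genes of each expression table. Spi1, which encodes the transcription factor PU.1, was not matched by name. Its gene ID stood in the tables under the older symbol Sfpi1 and was not counted as a member. The 38 genes were divided into 7 genes shared by most leukocytes, 13 macrophage genes, 4 antigen presentation genes, 7 lymphoid genes, 5 granulocyte and mast cell genes and 2 transcription factors. The gene listed as Emr1 encodes the macrophage surface protein F4/80 and is now named Adgre1.

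The pancreas of a newborn mouse holds resident macrophages, mast cells, granulocytes and a small number of lymphocytes among its epithelial, endothelial and mesenchymal cells. Macrophages take up dying cells and tag debris with complement, and cells with MHC class II display peptides to CD4 T cells. Granulocytes carry the calcium-binding proteins S100A8 and S100A9, mast cells store the protease carboxypeptidase A3, B cells signal through CD79 and T cells through the CD3 complex. IGF2 is a growth factor of the fetus whose gene is imprinted together with H19, and the H19 differentially methylated domain (DMD) controls the imprinting of both.

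RNA was sequenced from pancreatic cells of C57BL/6 mice at postnatal day 2 that had been sorted by flow cytometry into YFP-positive mesenchymal and YFP-negative non-mesenchymal fractions. Every animal, controls included, carried Cre recombinase at the Nkx3.2 locus and both deletions were designed for the mesenchyme, not for leukocytes. In the Igf2 deletion model, mutants were Igf2+/fl; Nkx3.2Cre/+ and controls Igf2+/+; Nkx3.2Cre/+. In the model designed to overexpress Igf2, mutants were H19DMDfl/+; Nkx3.2+/Cre and controls H19DMD+/+; Nkx3.2+/Cre. Values were used for 21 of 31 samples: 3 mutant and 4 control non-mesenchymal libraries of the Igf2 model, and, in the H19DMD model, 4 mutant and 3 control libraries of each fraction. Not analysed here were mesenchymal cells of the Igf2 model and, among H19DMD controls, 1 sample of each fraction. The labels do not say whether the libraries of a group came from separate animals, so p-values measure the spread between libraries, which may be technical.

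Values are FPKM, fragments scaled to transcript length and to the number of mapped fragments, and the 2 models were in separate tables normalised apart, so no test crosses the models. The tables hold no read counts and the depth is unknown. The 7 libraries of the Igf2 table listed 19199 to 20918 genes above 0 and the 14 libraries of the H19DMD model listed 17476 to 19352. The sort was clear for 10 mesenchymal markers. They summed to 4827 to 6274 FPKM in the mesenchymal libraries and to 33.1 to 187 FPKM in the non-mesenchymal ones. Markers of other cells were also found in the mesenchymal libraries. In the H19DMD model 10 acinar markers summed to 571 to 1794 FPKM in mesenchymal and 39489 to 104830 FPKM in non-mesenchymal libraries. There, 8 endothelial markers summed to 103 to 191 FPKM in mesenchymal and 22.7 to 66.8 FPKM in non-mesenchymal libraries. In these bulk samples, fewer cells of a type and less RNA per cell cannot be told apart.

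Some non-mesenchymal libraries stood apart from their group in these genes, and were singled out after their values had been seen. H19DMD mutant 1 was the highest of its 4 mutant libraries for 7 of 7 lymphoid and 4 of 4 antigen presentation genes, and the lowest for 12 of 13 macrophage genes. Its 3 most abundant genes took 41.1% of the FPKM total, against 51.4% to 56.8% in the other H19DMD non-mesenchymal libraries. In the Igf2 model that share was highest in mutant 2, at 82.5%, against 60.5% to 76.7% in the other libraries. FPKM totals of the Igf2 mutants, 3705912 to 6239189, were all above those of the controls, 2218951 to 3515900. Igf2 mutant 2 was the highest of its 3 mutant libraries for 7 of 7 lymphoid and 4 of 4 antigen presentation genes and the lowest for 11 of 13 macrophage genes. Igf2 mutant 3 was the highest for 12 of 13 macrophage genes. Controls stood apart too. Igf2 control 4 was the highest of its group for 7 of 7 lymphoid, 4 of 4 antigen presentation and 9 of 13 macrophage genes. Igf2 control 1 was the lowest for 10 of 13 macrophage genes and the highest for 4 of 5 granulocyte and mast cell genes, and H19DMD control 1 the lowest for 12 of 13 macrophage genes. Results that rest on these libraries are given with and without them.

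For the genes that carry the myeloid and antigen presentation results, the 250 bases before the transcription start are printed below, 5′ to 3′ on the gene's strand, from RefSeq on GRCm38.p6. Shown are the members described in full in the macrophage, antigen presentation and granulocyte and mast cell groups whose window touches no exon. Capitals mark every match, on either strand, to 5 motifs: the PU.1 core GAGGAA, the C/EBP-type TTGCNNAA, the RUNX core TGTGGT, the Y box CTGATTGG and the X box core CCTAGCAAC. None of these motifs contains another.
Cd68 (macrophage scavenger receptor, chr11:69666171-69666420, minus strand): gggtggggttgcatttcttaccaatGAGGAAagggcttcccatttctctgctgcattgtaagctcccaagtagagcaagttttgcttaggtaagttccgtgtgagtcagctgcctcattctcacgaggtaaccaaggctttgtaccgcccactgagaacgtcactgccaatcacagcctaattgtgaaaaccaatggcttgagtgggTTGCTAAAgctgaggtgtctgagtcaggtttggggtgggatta
C1qb (B chain of complement C1q, chr4:136886201-136886450, minus strand): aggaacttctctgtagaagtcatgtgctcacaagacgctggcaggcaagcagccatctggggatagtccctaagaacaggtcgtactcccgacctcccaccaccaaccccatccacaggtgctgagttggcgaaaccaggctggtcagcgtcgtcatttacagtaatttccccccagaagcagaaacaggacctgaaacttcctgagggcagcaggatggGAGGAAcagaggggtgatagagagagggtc
H2-Aa (alpha chain of MHC class II, chr17:34287824-34288073, minus strand): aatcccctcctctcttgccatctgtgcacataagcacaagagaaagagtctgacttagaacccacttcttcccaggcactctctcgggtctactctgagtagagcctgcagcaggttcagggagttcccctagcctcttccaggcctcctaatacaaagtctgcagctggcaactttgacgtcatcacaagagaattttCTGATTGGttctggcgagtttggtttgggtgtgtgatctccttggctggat
S100a9 (calcium-binding protein of neutrophils, chr3:90695722-90695971, minus strand): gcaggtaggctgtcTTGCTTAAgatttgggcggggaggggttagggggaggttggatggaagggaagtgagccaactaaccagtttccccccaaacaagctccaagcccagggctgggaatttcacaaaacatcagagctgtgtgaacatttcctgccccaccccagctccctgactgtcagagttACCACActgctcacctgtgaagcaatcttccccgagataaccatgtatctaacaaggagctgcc
Cpa3 (mast cell carboxypeptidase, chr3:20242182-20242431, minus strand): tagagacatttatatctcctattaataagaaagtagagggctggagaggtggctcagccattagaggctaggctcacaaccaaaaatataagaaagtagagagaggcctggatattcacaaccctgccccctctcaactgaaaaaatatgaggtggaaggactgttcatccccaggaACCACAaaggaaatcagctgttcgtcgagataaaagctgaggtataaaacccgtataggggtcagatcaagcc

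The capitals in Cd68 are a PU.1 core and a C/EBP-type match, in C1qb a PU.1 core, in H2-Aa a Y box, in S100a9 a C/EBP-type and a RUNX core match, and in Cpa3 a RUNX core. A promoter window was found for 28 of the 38 members, which had 34 windows. The PU.1 core was in 20 of them (58.8%) and in 23.3% of all 32851 windows of the same length. By group it was in 9 of 10 macrophage, 4 of 6 lymphoid, 3 of 5 granulocyte and mast cell, 3 of 7 shared leukocyte, 1 of 4 transcription factor and 0 of 2 antigen presentation windows. The 9 macrophage windows belong to 8 genes, since the windows of Fcgr3 overlap and hold the same match. The Y box was in 3 of 34 member windows (8.82%), those of H2-Aa, H2-Eb1 and Irf8, and in 3.83% of all windows. The C/EBP-type motif was in 14.7% of member and 9.56% of all windows, the RUNX core in 17.6% and 14%, and the X box core in 0 of 34 and 0.694%. These matches are letters in a window, not binding sites.

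The first comparison asked in which fraction leukocyte RNA was found. Of the 38 members, 28 had every mesenchymal library of the H19DMD model (7) below every non-mesenchymal one (7), against 5.25% of all 38283 genes. The other 10 were Cd68, C1qa, Cd3g, Lck, Cd4, Cd8a, Mpo, Elane, Irf8 and Runx1. In the mesenchymal libraries 5 members were listed at 0 throughout (Cd79b, Cd3e, Cd3g, Fcgr1 and Elane), 21 were at 0 in some, and 12 were above 0 in all. An exact 0 in such files can be a failed estimate. With limma on log2(FPKM + 1), where genes needed a mean of at least 1 FPKM, 32 of 36 members tested were lower in the mesenchymal fraction of the controls at an adjusted p under 0.05 and 0 were higher, against 10.3% and 12.4% of all genes tested. In the H19DMD mutants 29 of 35 were lower and 0 higher, against 15.1% and 13.5% of all genes. Most members passed the abundance filter through their non-mesenchymal values, so these counts describe the sort and are not support for anything else. The median log2 difference was -3.94 in the controls, where it was 0.080 over all genes, and -3.37 in the mutants, where it was -0.032. Without 7 members at 0 in every mesenchymal library of the group it was -4.01 in the controls and -3.42 in the mutants. Both contrasts use libraries that also enter the genotype comparisons below.

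**Figure D1:**
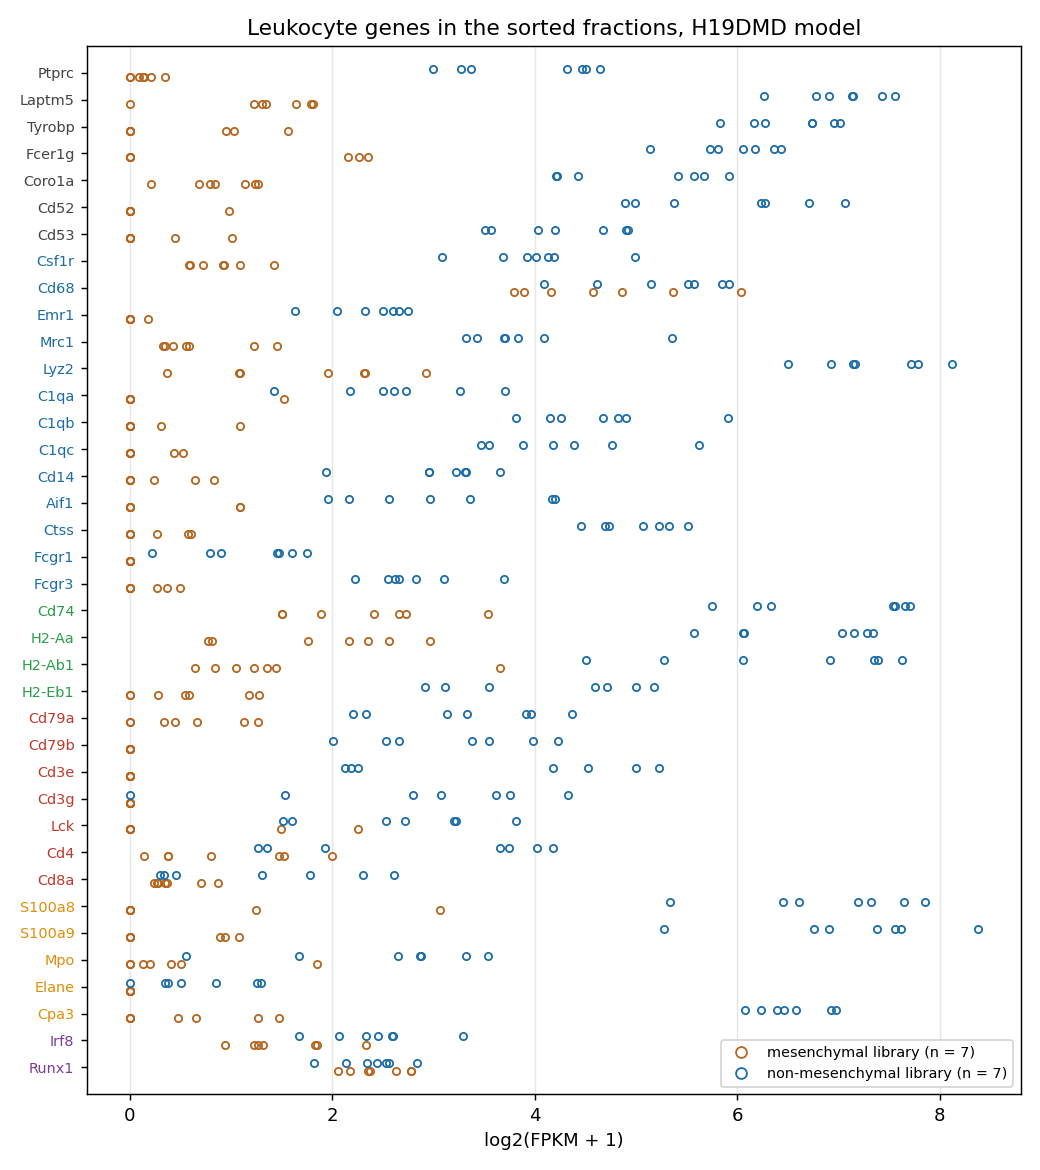
Level of each leukocyte gene (rows), as log2(FPKM + 1) on the horizontal axis, in the 7 mesenchymal (orange) and 7 non-mesenchymal (blue) libraries of the H19DMD model. For 28 of 38 genes all orange points lie to the left of all blue points, and Cd68, Irf8 and Runx1 are among the 10 whose points mix.

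Laptm5, a lysosomal membrane protein of blood cells, showed the pattern shared by most members. Its mesenchymal FPKM was 2.47, 1.48 and 1.34 in the controls and 2.13, 0, 1.55 and 2.52 in the mutants, while the non-mesenchymal libraries ranged from 76.0 to 188 FPKM. In the controls the mesenchymal mean was 90.4 times lower (log2 difference -5.85 ± 0.26 SE, limma adjusted p = 0.000102). Cpa3 was 136 times lower in the mesenchymal controls, with 0.393, 1.40 and 0 FPKM (adjusted p = 0.000227). In the mutants S100a9 had 1 mesenchymal library above 0, at 1.11 FPKM, and a log2 difference of -7.46 ± 0.32 (limma adjusted p = 3.05e-06).

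Of the 4 antigen presentation genes, Cd74, H2-Aa and H2-Ab1 were low but above 0 in all 7 mesenchymal libraries. H2-Eb1 was at 0 in 2 of them. Cd74, the invariant chain that guides MHC class II, had 10.6, 5.30 and 1.83 FPKM in the mesenchymal controls and 5.65, 2.70, 4.31 and 1.83 FPKM in the mutants. Its mean was 33.6 times lower than in the non-mesenchymal controls (limma adjusted p = 0.00116). H2-Aa and H2-Ab1, the chains of the class II heterodimer, reached 6.83 and 11.6 FPKM in the mesenchymal libraries. All 3 genes were lower in the mesenchymal fraction, with every mesenchymal library below every non-mesenchymal one. Acinar markers were also low but present, with sums of 629, 1411 and 750 FPKM in the mesenchymal controls. Their sums in the non-mesenchymal controls were 39489, 57463 and 104830 FPKM. Whether the class II RNA came from mesenchymal cells or from other cells in that fraction was not tested.

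Cd68, Irf8 and Runx1 did not pass the test between fractions in either genotype. Mpo did not pass in the controls (limma adjusted p = 0.109), nor did Lck, Cd3g and Cd4 in the mutants (adjusted p = 0.158, 0.0865 and 0.202). Cd68 had 22.8, 12.9 and 13.9 FPKM in the mesenchymal controls and 16.9, 40.2, 28.0 and 64.5 FPKM in the mesenchymal mutants. Its non-mesenchymal libraries ran from 16.1 to 59.6 FPKM, so the fractions overlapped, with mesenchymal controls 2 and 3 below that range and mesenchymal mutant 4 above it. Its log2 difference between fractions was -0.83 ± 0.42 in the controls (limma adjusted p = 0.228) and -0.39 ± 0.44 in the mutants (adjusted p = 0.551). Irf8, a transcription factor of monocytes and dendritic cells, had 0.916 to 4.04 FPKM in the mesenchymal and 2.18 to 8.81 FPKM in the non-mesenchymal libraries (adjusted p = 0.117 in the controls and 0.122 in the mutants, limma). Runx1, a regulator of blood formation, had 3.15 to 5.85 FPKM in the mesenchymal and 2.54 to 6.15 FPKM in the non-mesenchymal libraries (adjusted p = 0.255 and 0.225, limma). In the controls every mesenchymal library was below every non-mesenchymal one for Irf8 and for Runx1, while over both genotypes the fractions of these genes overlapped. Cd68 had the highest mesenchymal level of any member.

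Within the non-mesenchymal fraction, levels per transcript length differed widely between the groups of genes. S100a8 had the highest FPKM of any member in the Igf2 table, with up to 1246 FPKM, and Lyz2, the macrophage lysozyme, ranged from 180 to 468 FPKM there. Lyz2 shares sequence with its neighbour Lyz1, so its reads could have been split. In the same libraries the T cell gene Cd3e stood at 1.41 to 84.8 FPKM and Cd8a at 0.151 to 7.11 FPKM. Across the 7 Igf2 libraries the highest value was 60.1 times the lowest for Cd3e, 47.1 times for Cd8a and 18.4 times for S100a8, but 1.76 times for Cd14, the co-receptor for bacterial lipopolysaccharide, and 1.77 times for Runx1. Across the 7 H19DMD libraries the ratio was 10.9 for Cd3e, 22.2 for Cd8a, 8.76 for S100a9 and 1.88 for Cpa3. Cd3e and Cd8a had the largest ratios in both tables among the 18 genes described in full.

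**Figure D2:**
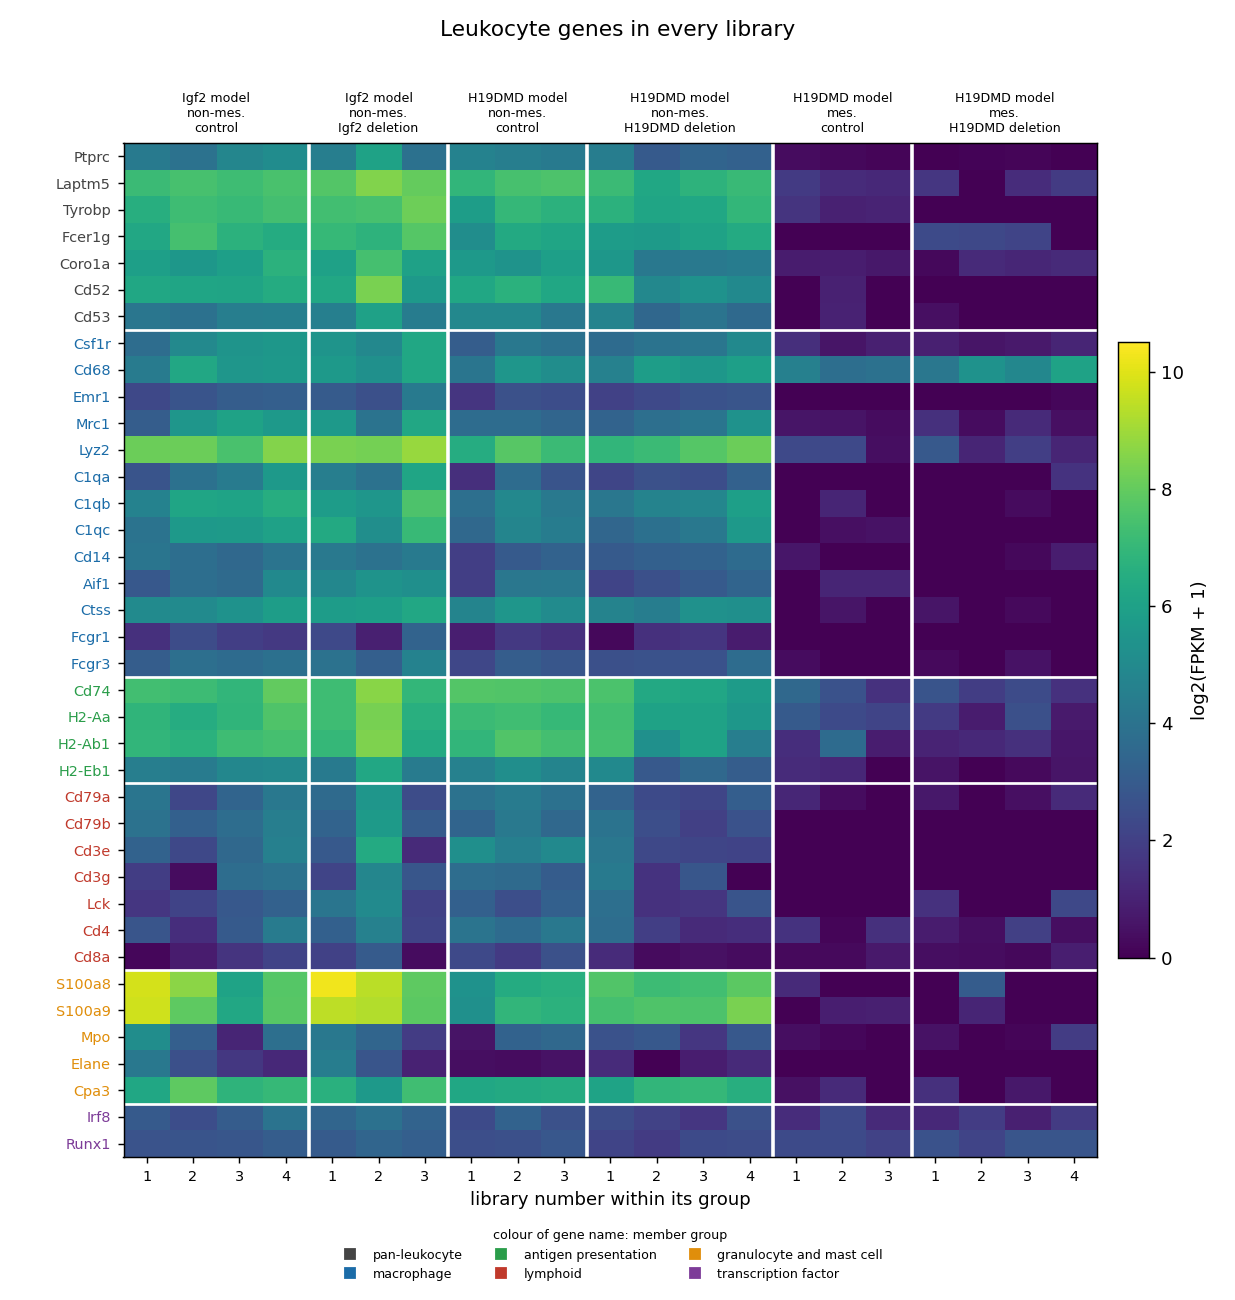
Level of each leukocyte gene, as log2(FPKM + 1) in colour, in 21 libraries, with genes in rows by group and libraries in columns by group, controls before mutants. The 7 mesenchymal columns are near 0 for most rows, with Cd68 and Runx1 among the exceptions, and the 2 models come from tables normalised apart.

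Ratios between genes whose products act as partners differed in their spread over the 14 non-mesenchymal libraries. S100a9 over S100a8, the subunits of calprotectin, lay between 0.556 and 1.44, with a median of 0.997. H2-Aa over H2-Ab1 lay between 0.788 and 2.15, with a median of 0.991. Cd79a over Cd79b, the signalling chains of the B cell receptor, lay between 0.441 and 1.55, with a median of 0.977. The ratio C1qc over C1qb lay between 0.560 and 1.49, and C1qb over C1qa between 1.90 and 7.79. The CD3 chains Cd3e and Cd3g kept no fixed order, with 3.91 and 0.266 FPKM in Igf2 control 2, 1.41 and 5.93 FPKM in Igf2 mutant 3, and 3.36 and 0 FPKM in H19DMD mutant 4. These ratios set FPKM, a level per transcript length, of a gene against its partner in the same library.

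The next comparison set the non-mesenchymal cells of H19DMD mutants against their controls, and asked whether leukocyte RNA differed in cells around a mesenchyme designed to make more IGF2. With limma, 0 of 37 members tested passed an adjusted p under 0.05, as did 0.0677% of all 16239 genes. Lymphoid and antigen presentation genes had lower means in the mutants, while S100a8 and S100a9 had higher ones. At an unadjusted p under 0.05 there were 2 members higher (2.96% of all genes) and 8 lower (2.38% of all genes). Groups did not overlap for 2 members higher (3.47% of all genes) and 5 lower (2.20% of all genes). These were S100a8 and S100a9, and Cd3e, Cd8a, Cd79a, Cd74 and Runx1. The median log2 difference was -0.46 over the members, with 16 above and 21 below 0, and 0.054 over all genes. The members' median was -0.28 without mutant 2, -0.27 without control 2 and -0.30 without control 3, and without control 1 the split was 9 above and 28 below. By an exact permutation test over libraries, 4 against 3 cannot give a two-sided p under 0.0286.

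All 7 lymphoid genes had log2 differences below 0, with a median of -1.33. Cd3e, the epsilon chain of the T cell receptor complex on chromosome 9 (44998740 to 45009627), had 17.1, 3.78, 3.56 and 3.36 FPKM in mutants 1 to 4 and 36.6, 22.1 and 31.0 FPKM in the controls. Every mutant library was below every control library, and mutant 1 was nearest to the controls. The means differed 4.31-fold (6.94 against 29.9 FPKM), a log2 difference of -2.23 ± 0.53 (limma adjusted p = 0.892, exact permutation p = 0.0571, two-sided). Without mutant 1 the log2 difference of Cd3e was -2.73 ± 0.23 and passed the test (limma adjusted p = 0.0175). Mutant 1 was left out after its values had been seen, so this p-value does not test the genotypes. Cd3e overlaps annotated antisense and other transcripts, and the strand used in counting was not given in the sources used here.

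Cd8a, a co-receptor of cytotoxic T cells, had 1.48, 0.231, 0.374 and 0.264 FPKM in the mutants and 3.93, 2.43 and 5.12 FPKM in the controls. Again no library overlapped, and mutant 1 was the highest mutant. Its log2 difference was -1.63 ± 0.38 (exact permutation p = 0.0571, two-sided). Cd79a had 9.08, 4.06, 3.60 and 7.77 FPKM in the mutants against 14.6, 19.6 and 14.1 FPKM in the controls, a log2 difference of -1.33 ± 0.33 without overlap (exact permutation p = 0.0571). Cd79b had 14.8, 4.78, 3.02 and 5.34 FPKM in the mutants against 9.41, 17.8 and 10.7 FPKM in the controls. Mutant 1 lay among the controls, and the log2 difference of Cd79b was -0.93 ± 0.47 (exact permutation p = 0.143). The other 3 lymphoid genes overlapped between groups: Cd4, the helper T cell co-receptor, at -1.89 ± 0.60, Cd3g at -1.32 ± 0.93 and the T cell kinase Lck at -0.57 ± 0.58 on the log2 scale.

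The 4 antigen presentation genes were also below 0, with a median log2 difference of -1.19. Cd74 had 185, 79.9, 72.2 and 52.7 FPKM in the mutants and 208, 201 and 187 FPKM in the controls. Mutant 1 was just under the lowest control and the others well under it, with means of 97.3 and 199 FPKM and a log2 difference of -1.19 ± 0.40 (exact permutation p = 0.0571). H2-Aa had 161, 66.0, 65.4 and 46.7 FPKM in the mutants and 141, 155 and 130 FPKM in the controls. Mutant 1 was above every control, so that the groups overlapped (log2 difference -0.90 ± 0.39, exact permutation p = 0.143). H2-Ab1, on chromosome 17 (34257689 to 34269419), had 167, 37.8, 65.7 and 21.7 FPKM in the mutants and 120, 197 and 162 FPKM in the controls. Here too mutant 1 lay among the controls, with a log2 difference of -1.49 ± 0.64 (exact permutation p = 0.143). H2-Eb1, another class II beta chain, had a log2 difference of -1.19 ± 0.50, and its annotated gene overlaps an antisense gene.

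S100a8, on chromosome 3 (90668978 to 90670035), had 199, 145, 159 and 231 FPKM in the mutants and 39.3, 86.8 and 97.0 FPKM in the controls. S100a9, on the same chromosome (90692632 to 90695721), had 166, 195, 187 and 332 FPKM in the mutants and 37.9, 119 and 107 FPKM in the controls. For both genes every mutant library, mutant 1 included, was above every control, and control 1 was the lowest. The S100a8 means differed 2.47-fold (184 against 74.4 FPKM), a log2 difference of 1.37 ± 0.34 (limma adjusted p = 0.892, exact permutation p = 0.0286). Those of S100a9 differed 2.50-fold, a log2 difference of 1.42 ± 0.44 (exact permutation p = 0.0286). Without control 1 the log2 differences were 0.97 for S100a8 and 0.90 for S100a9. Cpa3, on chromosome 3 (20215620 to 20242181), had 66.4, 121, 125 and 94.9 FPKM in the mutants and 74.6, 82.8 and 87.0 FPKM in the controls. Mutants 2 to 4 were above the controls and mutant 1 below them, with a log2 difference of 0.28 ± 0.24 (exact permutation p = 0.286). Mpo, the myeloperoxidase of neutrophil granules, had a log2 difference of 0.05, and Elane, neutrophil elastase, was too low to be tested at 0 to 1.46 FPKM. All 4 granulocyte and mast cell genes tested were above 0, with a median of 0.82.

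**Figure D3:**
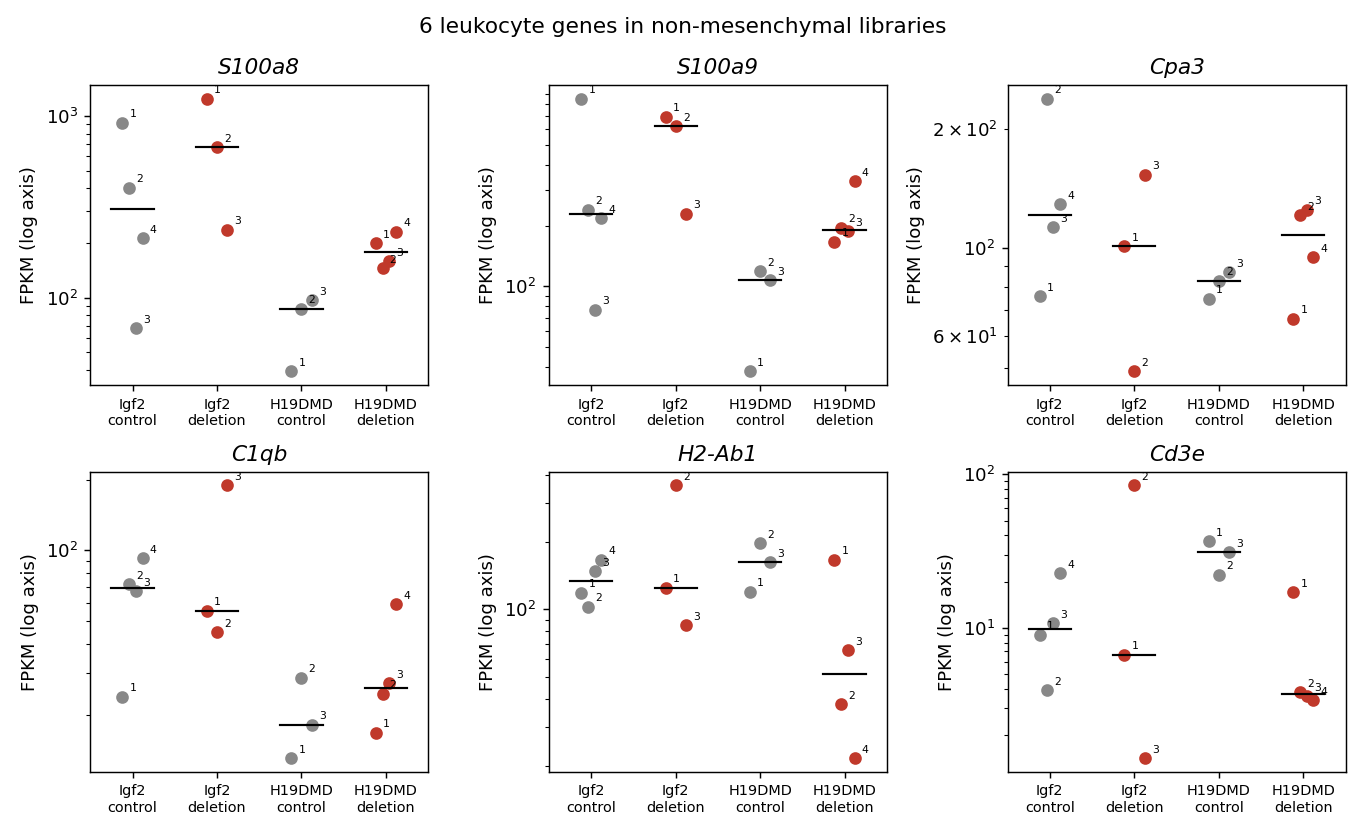
FPKM (logarithmic axis) of S100a8, S100a9, Cpa3, C1qb, H2-Ab1 and Cd3e in the 14 non-mesenchymal libraries, with each point a library marked by its number and each line the median of its group. In the H19DMD model, S100a8 and S100a9 are higher in every mutant than in every control and Cd3e lower, while in the Igf2 model all 6 genes overlap between groups.

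Macrophage genes showed no common shift: 10 of 13 log2 differences were above 0, with a median of 0.20. Cd68 had 23.6, 56.8, 46.7 and 59.6 FPKM in the mutants and 16.1, 44.7 and 34.4 FPKM in the controls, with mutants 2 to 4 above the controls and mutant 1 among them (log2 difference 0.57 ± 0.44, exact permutation p = 0.314). Lyz2 had 121, 140, 210 and 278 FPKM in the mutants and 89.5, 219 and 142 FPKM in the controls, which overlapped (0.33 ± 0.39, exact permutation p = 0.543). C1qb, on chromosome 4 (136880129 to 136886187), had 16.8, 24.6, 27.3 and 59.0 FPKM in the mutants and 13.1, 28.8 and 18.2 FPKM in the controls, which also overlapped (0.57 ± 0.44, exact permutation p = 0.371). Leaving out a single library gave differences of 0.16 to 0.87 for Cd68, 0.01 to 0.65 for Lyz2 and 0.23 to 0.85 for C1qb. Control 1 was the lowest control for 12 of 13 macrophage genes, and without it 6 of 13 differences were above 0 and the median was -0.08. Without control 2, 11 of 13 were above 0 and the median was 0.57.

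Genes shared by most leukocytes showed values between these patterns. Laptm5 had 140, 76.0, 109 and 139 FPKM in the mutants and 119, 171 and 188 FPKM in the controls, a log2 difference of -0.46 ± 0.27 (exact permutation p = 0.171). Tyrobp, a signalling adaptor of myeloid and natural killer cells, had 106, 70.7, 76.2 and 123 FPKM against 55.8, 128 and 106 FPKM, a difference of 0.00 ± 0.33. Fcer1g, the shared gamma chain of Fc receptors, had 55.2, 52.3, 65.6 and 85.3 FPKM against 34.2, 81.1 and 71.5 FPKM, a difference of 0.12 ± 0.33. All 3 overlapped between groups. Ptprc, which encodes CD45, had a log2 difference of -0.97 ± 0.35, and Coro1a, a coat protein of actin in leukocytes, of -1.06 ± 0.36. Over the 7 genes the median was -0.72, with 5 below 0. Of the transcription factors, Runx1 had 3.41, 2.54, 4.09 and 4.43 FPKM in the mutants against 4.79, 4.91 and 6.15 FPKM in the controls, without overlap (-0.46 ± 0.22, exact permutation p = 0.0571). Irf8 had 4.46, 3.18, 2.18 and 5.05 FPKM against 4.06, 8.81 and 5.02 FPKM, with overlap (-0.55 ± 0.33, exact permutation p = 0.257).

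These counts depended on mutant 1. That library was singled out after its values had been seen, so p-values without it do not test the genotypes. Without it, 20 of 16191 genes passed the test (0.124%), and of the members Cd3e alone did. Groups then did not overlap for 15 members lower (40.5% of those tested, against 4.61% of all genes) and 5 higher (7.59% of all genes). The 5 were Cpa3, Cd68, Mrc1, the mannose receptor of macrophages, S100a8 and S100a9. At an unadjusted p under 0.05, 15 were lower (3.03% of all genes) and 3 higher (3.96% of all genes). The medians were -1.87 for the lymphoid, -1.59 for the antigen presentation, -0.96 for the shared leukocyte, 0.33 for the macrophage and 0.90 for the granulocyte and mast cell genes. Without mutant 1, Cd74 had a log2 difference of -1.55 ± 0.20 (limma adjusted p = 0.118) and H2-Ab1 of -2.02 ± 0.42 (adjusted p = 0.418). Leaving out control 1 in its place gave 8 members lower without overlap, against 6.98% of all genes.

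Markers of other cells moved with these groups in part. The summed FPKM of 8 erythroid markers was 155, 710, 1103 and 1719 in mutants 1 to 4 and 125, 443 and 136 in the controls, so mutant 1 lay among the controls. Of these 8 genes 7 were above 0, with a median log2 difference of 1.59, and 3 were higher at an unadjusted p under 0.05. Without mutant 1 the erythroid median was 2.10, and 5 of 8 were higher without overlap. The sum of 10 acinar markers was 46874 to 65366 FPKM in the mutants and 39489 to 104830 FPKM in the controls. The sum of 10 endocrine markers was 20529, 15627, 13127 and 11288 FPKM in mutants 1 to 4 and 19940, 30027 and 27336 FPKM in the controls, so mutant 1 alone overlapped with the controls, and 9 of the 10 genes had log2 differences below 0. Their median was -0.27, with 3 lower at an unadjusted p under 0.05 (2.38% of all genes) and 2 lower without overlap (2.20% of all genes). No defining marker of the erythroid or acinar list was at 0 throughout a group, and the part of these markers in the leukocyte differences was not tested.

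**Figure D4:**
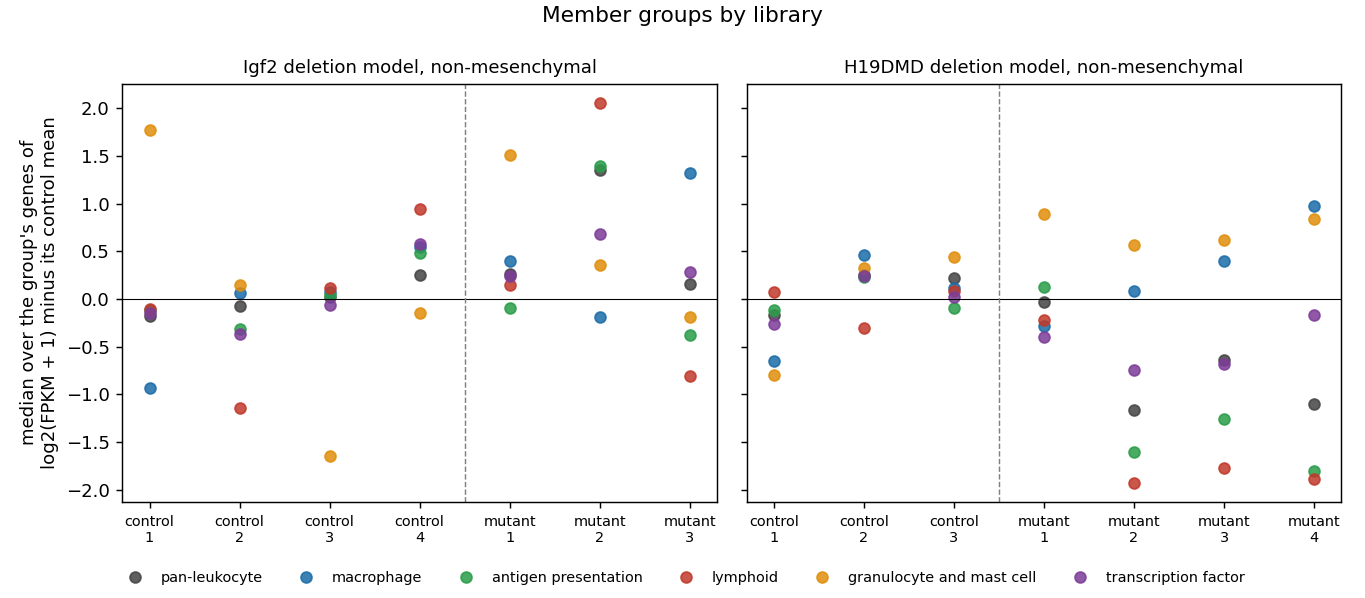
Median over the genes of each group (colours) of log2(FPKM + 1) minus that gene's control mean, per non-mesenchymal library, with the Igf2 model and the H19DMD model in separate panels. H19DMD mutants 2 to 4 lie between -1.93 and -1.77 for lymphoid genes and mutant 1 at -0.22, and Igf2 mutant 2 lies at 2.06 for lymphoid and -0.19 for macrophage genes.

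In the Igf2 model the same question was put to non-mesenchymal cells around a mesenchyme designed to lack IGF2. None of the 38 members passed an adjusted p under 0.05 (limma), and 0.0631% of all 17441 genes did. At an unadjusted p under 0.05, 3 members were higher and 0 lower, against 2.91% and 2.37% of all genes. Groups did not overlap for 1 member higher and 0 lower, against 2.65% and 3.37% of all genes. The log2 differences were above 0 for 36 of 38 members, with a median of 0.43, where all genes had -0.028. That count changed with the libraries: without mutant 2 it was 24 of 38.

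The member without overlap was Laptm5, with 205, 363 and 262 FPKM in the mutants and 141, 174, 150 and 179 FPKM in the controls. Its means were 277 and 161 FPKM, a log2 difference of 0.75 ± 0.22 (limma adjusted p = 0.919, exact permutation p = 0.0286). Tyrobp had 161, 172 and 288 FPKM in the mutants and 95.8, 148, 135 and 165 FPKM in the controls. Mutant 1 of Tyrobp was under control 4, and the log2 difference was 0.58 ± 0.27 (exact permutation p = 0.0857). Fcer1g had 131, 111 and 210 FPKM against 76.8, 168, 106 and 87.2 FPKM (0.47 ± 0.33). All 7 genes shared by most leukocytes were above 0, with a median of 0.51, and without mutant 2 it was 4 of 7 and 0.21. The other members at an unadjusted p under 0.05, chosen after their values were seen, were Aif1, a calcium-binding protein of macrophages (1.34 ± 0.46), and Ctss, the lysosomal protease cathepsin S (0.68 ± 0.25), and both overlapped between groups.

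Among macrophage genes, 13 of 13 were above 0, with a median of 0.44. Cd68 had 50.5, 37.5 and 75.6 FPKM in the mutants and 19.9, 78.3, 45.2 and 47.6 FPKM in the controls (0.28 ± 0.46). Lyz2 had 333, 313 and 468 FPKM against 281, 282, 180 and 378 FPKM (0.43 ± 0.28). C1qb had 55.4, 45 and 189 FPKM against 23.9, 71.7, 67.1 and 92.5 FPKM (0.44 ± 0.62). In each of these genes mutant 3 was the highest mutant and the groups overlapped. Without mutant 3, 8 of 13 macrophage genes were above 0 and the median was 0.07, and without control 1 it was 11 of 13 and 0.23. Leaving out mutant 2 moved the median the other way, to 0.84, with 13 of 13 above 0.

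The lymphoid and antigen presentation genes depended on which libraries were included. Cd3e had 6.68, 84.8 and 1.41 FPKM in the mutants and 8.98, 3.91, 10.7 and 22.6 FPKM in the controls (log2 difference 0.11 ± 1.17). Cd8a had 3.13, 7.11 and 0.282 FPKM against 0.151, 0.737, 1.96 and 3.29 FPKM (0.64 ± 0.73). The Cd8a difference was 0.04 without mutant 2 and 1.37 without mutant 3. Cd79a had 11.3, 45.1 and 4.46 FPKM against 15.7, 3.65, 9.45 and 17.5 FPKM (0.39 ± 0.79). For these genes mutant 2 was the highest of all 7 libraries and mutant 3 stood at or near the lowest. Cd79b had 9.21, 51.5 and 7.10 FPKM against 14.6, 8.26, 12.4 and 21.5 FPKM (0.18 ± 0.67). Cd74 had 148, 400 and 123 FPKM against 160, 144, 121 and 248 FPKM (0.26 ± 0.44). In both, mutant 2 stood above all other libraries. H2-Aa had 148, 320 and 96.3 FPKM against 117, 90.4, 117 and 194 FPKM (0.41 ± 0.44). H2-Ab1 again had mutant 2 highest and mutant 3 lowest of the mutants, with 125, 358 and 85.2 FPKM against 119, 103, 148 and 167 FPKM (0.25 ± 0.47). Without mutant 2, 2 of 7 lymphoid genes were above 0, with a median of -0.20, and 0 of 4 antigen presentation genes, with a median of -0.30. With all libraries the medians were 0.45 and 0.29, and without mutant 3 they were 1.10 and 0.66. Without control 2, 3 of 7 lymphoid genes were above 0, with a median of -0.02, and without control 4 the lymphoid median was 0.95.

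Of the granulocyte and mast cell genes 3 of 5 were above 0, with a median of 0.33. That median was -0.53 without mutant 1 and 1.19 without mutant 3. S100a8 spread widely in both groups of this model, with 1246, 673 and 236 FPKM in the mutants and 917, 402, 67.7 and 212 FPKM in the controls. S100a9 had 693, 619 and 229 FPKM against 851, 240, 76.6 and 218 FPKM. Control 1 was above 2 of 3 mutants for S100a8 and above all 3 for S100a9, and the log2 differences were 1.11 ± 0.93 and 0.93 ± 0.80. Without control 3 they were 0.45 and 0.38, and leaving out any other library gave at most 1.76 and 1.53. Cpa3 had 101, 48.9 and 153 FPKM in the mutants and 75.7, 238, 113 and 129 FPKM in the controls, a log2 difference of -0.48 ± 0.49 that was -0.03 without mutant 2 and -0.85 without mutant 3. Irf8 had 9.67, 14 and 9.07 FPKM against 6.89, 4.65, 7.26 and 15.1 FPKM (0.42 ± 0.37). Runx1 had 7.18, 9.68 and 8.17 FPKM against 5.46, 5.59, 5.97 and 7.62 FPKM (0.39 ± 0.20). Runx1 overlapped only through mutant 1 and control 4.

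Which members did not overlap depended on single libraries. The count of higher members was 5 without mutant 1 (5.97% of all genes), 4 without mutant 2 (6.52%), 3 without mutant 3 (5.89%), 2 without control 2 (4.83%) and 8 without control 4 (4.39%), where 8 is 21.1% of the members. Lower members numbered 1 without mutant 2, an antigen presentation gene (7.45% of all genes), and 0 when any other library was left out. The sum of 10 acinar markers was 86798 to 99100 FPKM in the mutants and 29589 to 42729 FPKM in the controls, so the sums did not overlap. None of 9 acinar genes tested passed an adjusted p under 0.05 (limma), and 8 were higher at an unadjusted p under 0.05, against 2.91% of all genes. The sum of 8 endothelial markers was 90.4, 50.5 and 271 FPKM in mutants 1 to 3 and 16.3, 268, 130 and 115 FPKM in controls 1 to 4. It was highest in mutant 3 and lowest in control 1, and within the mutants and within the controls so were most macrophage genes. The sum of 8 erythroid markers was 796, 1778 and 603 FPKM in the mutants and 4189, 850, 728 and 1728 FPKM in the controls, with control 1 highest, and 8 of 8 genes were below 0, with a median of -0.57. The part of acinar, endothelial and erythroid RNA in the leukocyte values was not tested.

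**Figure D5:**
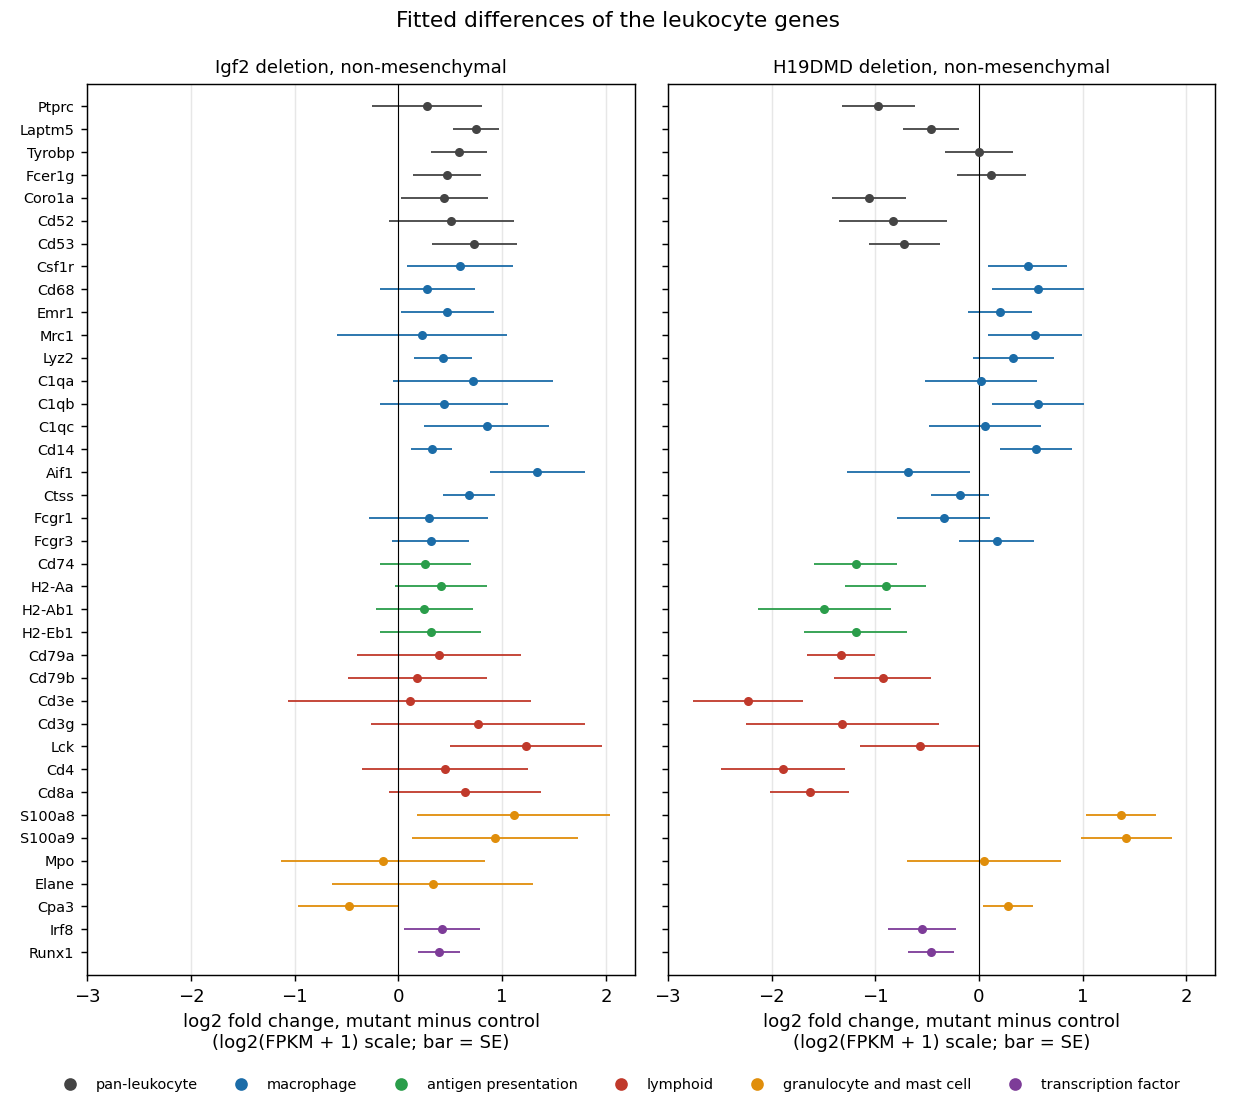
Log2 difference, mutant minus control, on the log2(FPKM + 1) scale with its standard error (bars), for the leukocyte genes in the non-mesenchymal cells of the Igf2 model and of the H19DMD model. The Igf2 panel has 36 of 38 points above 0, and the H19DMD panel has 16 above and 21 below, with all lymphoid and antigen presentation genes below.

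In the mesenchymal fraction of the H19DMD model 11 members were abundant enough to test. None passed an adjusted p under 0.05 (limma), against 0.0694% of all 15856 genes, and groups overlapped for all 11, against 5.39% without overlap among all genes. At an unadjusted p under 0.05 only Fcer1g was higher, with 4.13, 3.82, 3.45 and 0 FPKM in the mutants, and 1.44% of all genes were. Its 3 control libraries were listed at 0, so no fold is given. Tyrobp had the opposite pattern, with 1.95, 0.932 and 1.04 FPKM in the controls and 4 mutants listed at 0. Cd68 had means of 37.4 FPKM in the mutants and 16.6 FPKM in the controls, a log2 difference of 1.01 ± 0.45 (limma adjusted p = 0.927), with mutant 1 at 16.9 FPKM under control 1 at 22.8 FPKM. H2-Aa had 2.40, 0.753, 4.91 and 0.711 FPKM in the mutants and 6.83, 4.10 and 3.50 FPKM in the controls (-1.02 ± 0.50). H2-Ab1 had 1.07, 1.34, 1.72 and 0.567 FPKM against 1.56, 11.6 and 0.795 FPKM (-0.86 ± 0.68). Without control 2 the H2-Ab1 difference was -0.01. Both class II genes overlapped between groups, and Cd74 differed by -0.43 ± 0.53. The median over the 11 was -0.16, and over all genes it was -0.066.

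The last test asked whether the difference between fractions itself differed between H19DMD mutants and controls. It passed for 0 of 36 members and for 0.0117% of all 17105 genes (limma, adjusted p under 0.05). At an unadjusted p under 0.05 there were 6 members higher and 2 lower, against 1.80% and 4.55% of all genes. Cd3e had the interaction with the lowest adjusted p, 2.23 ± 0.59 on the log2 scale (limma adjusted p = 0.722), and it was listed at 0 in all mesenchymal libraries. Without non-mesenchymal mutant 1 it was 2.73 ± 0.29 and passed (adjusted p = 0.00423). That library was left out after its values had been seen, so this p-value does not test the genotypes. S100a9 differed the other way, by -1.76 ± 0.61 (limma adjusted p = 0.755). Over the members tested the median interaction was 0.37, and over all genes it was -0.11. Cd79b, Cd3e and Cd3g were at 0 in all 7 mesenchymal libraries and Lck in 5 of 7, so for Cd79b, Cd3e and Cd3g the interaction repeats the non-mesenchymal difference with its sign turned and adds nothing to it. These values share their libraries with the 4 comparisons above.

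Other genes of the same lineages, listed apart from the members, were counted in the same fits. In the non-mesenchymal cells of H19DMD mutants 0 of them passed an adjusted p under 0.05 (limma). Of 16 other lymphoid genes tested, 12 were below 0, with a median of -0.79, and 7 were lower at an unadjusted p under 0.05, against 2.38% of all genes. The most abundant of them was Il7r, the receptor for interleukin 7, with 22.3, 4.72, 4.12 and 2.38 FPKM in the mutants and 22.8, 19.3 and 19.2 FPKM in the controls. Mutant 1 of Il7r again lay among the controls (-1.63 ± 0.62). Of 14 other granulocyte and mast cell genes 13 were above 0, with a median of 0.45, and 3 were higher at an unadjusted p under 0.05, against 2.96% of all genes. Groups did not overlap for 2 of them, both higher, against 3.47% of all genes, and the largest log2 difference of the list was 1.39. The most abundant of them, the mast cell chymase Cma1, had 75.0, 156, 127 and 129 FPKM in the mutants and 69.8, 88.2 and 101 FPKM in the controls (0.46 ± 0.27), where mutant 1 alone lay among the controls. The 5 other MHC class II genes tested were all below 0, from -0.81 to -0.58, with 2 lower at an unadjusted p under 0.05, against 2.38% of all genes. The same list also held Flt3, a cytokine receptor of dendritic cell precursors, at 0.06. Of 19 other macrophage and monocyte genes 11 were above 0, with a median of 0.08.

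In the Igf2 model 17 of 19 other macrophage and monocyte genes were above 0, with a median of 0.41, and 9 of 17 other lymphoid genes, with a median of 0.07. None passed an adjusted p under 0.05 (limma), and at an unadjusted p under 0.05 there were 2 and 0 of them higher, against 2.91% of all genes. The fractions differed in the growth factor of macrophages and its receptor. Csf1, which encodes a ligand of that receptor, stood at 31.2 to 50.6 FPKM in the mesenchymal libraries and at 3.19 to 11 FPKM in the non-mesenchymal libraries of the H19DMD model. It was higher in the mesenchymal fraction of the controls by 3.01 on the log2 scale (limma adjusted p = 0.000849) and of the mutants by 2.39 (adjusted p = 0.000473). Csf1r, its receptor and a member, went the other way, by -2.75 and -3.37. Il34, the other ligand of the receptor, overlapped between fractions, at 0.748 to 9.55 FPKM in the mesenchymal and 0.466 to 8.39 FPKM in the non-mesenchymal libraries (limma adjusted p = 0.640 in the controls and 0.926 in the mutants). Csf1 and Il34 were chosen for mention after their values had been seen. In the mesenchymal fraction every mutant library was below every control for Csf1, at 31.2 to 34.7 against 38.9 to 50.6 FPKM, a log2 difference of -0.41 (limma adjusted p = 0.927). In that direction 3.77% of all genes tested did not overlap. Of the 9 growth factor and receptor genes tested in its list, 6 were above 0, with a median of 0.09.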

How the data were processed

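Mesenchymal and non-mesenchymal pancreatic cells were sorted at postnatal day 2 after trypsin-EDTA digestion, and RNA was amplified (Ovation RNA-seq V2) and sequenced single-end, per the labels' protocols. The deposited values are FPKM per gene. The submitters' processing notes name TopHat2 2.0.8, Cufflinks 2.2.1 and GRCm38. The annotation release and strand setting were not given in the sources used here. In the table of the Igf2 model, 8 columns, those of mesenchymal cells, were not used here.

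Groups follow the labels. Members were matched by gene name, and FPKM was transformed to log2(FPKM + 1). Each comparison was fitted over all genes averaging 1 FPKM or more, with limma 3.58.1 in R 4.3.3 (trended empirical Bayes), and p-values were adjusted over all genes by the Benjamini-Hochberg method at 0.05. The interaction used all 14 H19DMD libraries, with fraction and genotype. Exact two-sided permutation tests over libraries were run for the genes described in full. The fits were tested on simulated data. Fold changes on this scale understate those of low genes. Depth is unknown, so no counting interval is given. Of the members, 15 overlap another annotated gene, so their reads may be shared, and Lyz2 and the Fc receptor genes have close copies.

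The members and lists were chosen with earlier results of these data known. Genes were described in full by this rule: up to 3 per group by mean non-mesenchymal FPKM, any past the threshold in a mutant comparison, and up to 3 per mutant comparison with the largest change without overlap. Promoter windows are from RefSeq, and gene positions from GENCODE M21, where 36341 of the 38283 gene IDs were found. Alternatives were other pseudocounts, filters, scaling and variance trends, protein-coding genes only, leaving out each library, the replicate number as a block and, in the H19DMD model, all libraries in a joint fit.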

Additional observations from a re-analysis of the deposited data

Results flagged for a closer look

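In groups of 4 libraries, a value was singled out where its gap to the nearest other library, divided by the range of the group, exceeded Dixon's 95% critical value. This held for 8 of 54 groups of the genes described in full, and chance alone gives about 1 in 20 where values are independent and normally distributed. Ties at 0, which may be failed estimates, decide it for S100a8 and C1qb in the mesenchymal mutants and for S100a9 there, so no rate is read from the 8. In the non-mesenchymal H19DMD mutants, library 1 was far above the other 3 for H2-Aa (161 FPKM), Cd3e (17.1 FPKM) and Cd8a (1.48 FPKM). In the mesenchymal H19DMD mutants, library 2 was far above the others for S100a8 (7.35 FPKM) and S100a9 (1.11 FPKM), and library 4 for Cd8a (0.835 FPKM). There, C1qb was above 0 in library 3 alone (0.243 FPKM) and Fcer1g was at 0 in library 4 alone (0 FPKM).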

How the results depend on the processing

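Of 88 log2 differences, 23 passed the test and 0 of these lost it under the settings in which they were tested. Changed signs were found in 8 of 739 values under other settings and in 29 of 710 without a library, all for differences that had not passed. With a pseudocount of 0.1, the Laptm5 interaction was -0.39 (0.23 as reported) and Cd3e in the Igf2 model -0.03 (0.11). With median-ratio scaling, Tyrobp in H19DMD non-mesenchymal cells was -0.07 (0.00) and the H2-Aa interaction 0.01 (-0.12), which was 0.39 with a pseudocount of 5. The count of members that passed the interaction rose from 0 to 1 (Tyrobp, -3.75 ± 0.47) with a pseudocount of 0.1. Tyrobp was listed at 0 in all 4 mesenchymal mutants and at 0.932 to 1.95 FPKM in the mesenchymal controls. Its value therefore depends on the pseudocount, and such zeros can be failed estimates. The cause was not tested.

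Without each library in turn, the members that passed numbered 0 to 1 in H19DMD non-mesenchymal cells and 0 to 1 in the interaction, both Cd3e without non-mesenchymal mutant 1. Signs changed within these ranges. In the Igf2 model they were -0.08 to 0.57 for Cd68, -0.19 to 0.83 for C1qb, -0.26 to 0.59 for Cd74, -0.06 to 0.80 for H2-Aa, -0.35 to 0.68 for H2-Ab1, -0.44 to 1.10 for Cd79a, -0.67 to 0.68 for Cd79b and -1.33 to 1.25 for Cd3e. In H19DMD non-mesenchymal cells they were -0.35 to 0.25 for Tyrobp and -0.26 to 0.35 for Fcer1g. In H19DMD mesenchymal cells they were -0.44 to 0.16 for Laptm5, -0.56 to 0.42 for Lyz2, -0.97 to 0.05 for Cd74 and -0.37 to 0.17 for Irf8. In the interaction they were -0.89 to 0.09 for Lyz2, -0.48 to 0.24 for H2-Aa and -0.64 to 0.01 for Cpa3. The members lower in the mesenchymal fraction numbered 25 to 33 in the controls and 20 to 30 in the mutants over all settings.

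Shared replicate numbers were not taken as pairs, since correlations of same-numbered libraries ran from -0.157 to 0.146 over all group pairs. Between the fractions of H19DMD mutants all 4 were above 0 (0.0175 to 0.146), and 3 of 4 libraries correlated best with their own number, a hint from the data and not the design. With the replicate block, 0 members passed in each mutant comparison and in the interaction, and 30 and 30 were lower in the mesenchymal fraction of controls and mutants. The replicate block turned Tyrobp (-0.14) and Fcer1g (-0.02, 0.12 as reported) in H19DMD non-mesenchymal cells and the Lyz2 interaction (0.20, -0.24 as reported).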
